A study of Mus musculus with 8 samples.

Results

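The deletion of Ezh2 in leukaemia cells that kept Ezh1 was examined in 4 of the 8 libraries of an RNA sequencing series on mouse acute myeloid leukaemia (AML) sorted from bone marrow as c-kit+ cells. The 4 libraries are those whose labels give intact Ezh1. The control group (2 libraries) was labelled Ezh1+/+ Ezh2+/+ and received corn oil, and the deleted group (2 libraries) was labelled Ezh1+/+ Ezh2-/- and received tamoxifen. The series' design text gives the Ezh2 allele as flox/flox before deletion, so the control label may stand for unrecombined floxed alleles. The other 4 libraries, 2 labelled Ezh1-/- Ezh2+/+ after oil and 2 labelled Ezh1-/- Ezh2-/- after tamoxifen, are the Ezh1-null cells and served as the reference for what is particular to Ezh1-present cells. All mice were of strain C57BL/6, tamoxifen was given at 10 mg/kg/day for 5 doses, and cells were taken 7 days after treatment. All sample titles carry the name Moz. The sources used here do not give the Cre line, the age of the mice or whether replicates were separate animals or separate leukaemias, so each p measures the spread between libraries, which may be technical. Tamoxifen and Ezh2 deletion went together in every library and cannot be told apart.

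Ezh2 and Ezh1 are the alternative catalytic subunits of Polycomb repressive complex 2 (PRC2), which methylates lysine 27 of histone H3 and keeps developmental regulators, cell cycle inhibitors and lineage genes silent. A second complex, PRC1, is recruited to many of the same genes. In cells that lack Ezh2, a complex built on Ezh1 can maintain part of the mark. In bulk RNA, fewer cells of a type and less RNA per cell cannot be told apart.

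The values are log2 normalized read counts, centred by row, so 0 is the median of a gene in the 8 libraries and the absolute level is lost. The lowest normalized count was set to 1 (the floor). It was recognised where at least 2 libraries tied at the row minimum, so a single library at the floor is counted as above it throughout. Differences between groups are log2 changes, tamoxifen minus oil, ± the standard error (SE) of a limma fit to all 8 libraries, and a gene was called where the Benjamini-Hochberg adjusted p was under 0.05. Among rows of low count the normalized value of 1 read lay between 0.746 and 1.01 in the 4 libraries, which ranks Ezh1-present tamoxifen replicate 1 as the deepest of them. Libraries of 1 group differed by a median SD over genes of 0.116 in oil and 0.128 in tamoxifen. Kit, the gene of the sorting marker, lay at -0.64 and -0.71 in oil and at -0.71 and -0.25 in tamoxifen, above the floor in all 4.

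The targeted gene changed little as a whole. Ezh2 (chromosome 6, 47530274 to 47595338, mm10) lay at 0.25 and 0.23 in the oil libraries and at 0.09 and 0.03 in the tamoxifen libraries. Both tamoxifen libraries lay below both oil libraries, but the change of -0.18 ± 0.08 was not called (adjusted p = 0.293). The row counts reads over the whole gene and the sources used here do not give the deleted exons, so it does not measure the deletion. Ezh1 lay at 1.71 and 1.66 in oil and at 1.55 and 1.63 in tamoxifen, against -1.94 to -1.55 in the 4 Ezh1-null libraries. Of the 6 core PRC2 subunits tested limma called none and none had an unadjusted p under 0.05, with changes of -0.19 to 0.00, and Suz12, the subunit that stabilises the complex, had a change of -0.19 ± 0.10.

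Between the oil and tamoxifen libraries of Ezh1-present cells, 163 of the 18051 genes tested differed (0.903%), of which 115 rose (0.637%) and 48 fell (0.266%). The median change of the called genes was 1.79 among the rises and -1.22 among the falls, against 0.0145 over all genes, of which 51.9% lay above 0. Of the rises 51 exceeded 4-fold, and of the falls 10 did. In all 163 called genes the oil and tamoxifen libraries did not overlap, which was so for 53.8% of all genes tested. An unadjusted p under 0.05 was found in 3713 genes (20.6%), both directions together. These shares over all genes stand beside every count of list members given below. Called genes outside the naming rule of the methods are named below after their values were seen.

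The calls were sensitive to single libraries and to the borrowed spread. Fitted to the 4 Ezh1-present libraries alone, limma called 0 genes, with 3152 at an unadjusted p under 0.05. Without Ezh1-present oil replicate 1 there were 24 calls, without oil replicate 2 there were 95, without tamoxifen replicate 1 there were 404 and without tamoxifen replicate 2 there were 67. Without 1 Ezh1-null library there were 26 to 28, and 12 genes stayed called without each library in turn. Of these genes, 8 had a whole Ezh1-present group at the floor, where libraries cannot vary and p can be too small. The 4 groups share 1 spread per gene, so an Ezh1-null group at the floor can lower p as well. Cdkn2a, Bmi1, Lin28b, Eya1, Hoxb3 and Hoxb5, described below, did not stay called without each library. Tmem178 was the 1 gene among the 12 with no library at the floor.

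Markers of other blood cells moved with tamoxifen, most in replicate 2, and these values stand beside every rise reported here. Among T and NK cell markers 30 of 31 had a change above 0, with a median of 2.64. The list mean was -1.17 and -1.23 in oil, 0.69 in tamoxifen replicate 1 and 1.78 in replicate 2. All 15 erythroid markers had a change above 0 (median 3.35), with list means of -2.21 and -1.42 in oil, -0.37 in tamoxifen replicate 1 and 2.32 in replicate 2. The tamoxifen libraries were thus higher on both lists, and replicate 2 was well above replicate 1.

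The same order held for other lineages. The median change was 2.59 over 9 eosinophil markers (9 above 0), 1.96 over 11 mast cell and basophil markers (8 above 0), 1.84 over 18 megakaryocyte and platelet markers (16 above 0), 1.58 over 21 mature neutrophil markers (17 above 0) and 1.38 over 22 stromal and endothelial markers (18 above 0). Monocyte and macrophage markers differed less, with list means of -0.25 and -0.34 in oil and 0.39 and 0.47 in tamoxifen. Dendritic cell markers had a median change of 0.53 (9 of 14 above 0), and B cell markers 0.83 (11 of 15). Defining genes at the floor in both oil libraries were Cd3e and Cd8b1 of the T cell list, Pax5, Rag1 and Vpreb2 of the B cell list, Fcer1a, Il4 and Tpsb2 of the mast cell and basophil list, Gp6 of the megakaryocyte list and Lum of the stromal list. In the tamoxifen libraries Vpreb2 and the bone gene Bglap were at the floor in both. Without tamoxifen replicate 2 the medians were 1.96 for T and NK cell, 2.04 for erythroid, 1.53 for eosinophil, 1.22 for megakaryocyte, 0.94 for mature neutrophil, 0.76 for stromal, 0.50 for B cell and 0.24 for dendritic cell markers. Under quantile normalization the B cell median was 0.115 and that of monocyte and macrophage markers 0.287. The part of these cell types in the gene results was not tested.

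**Figure D1:**
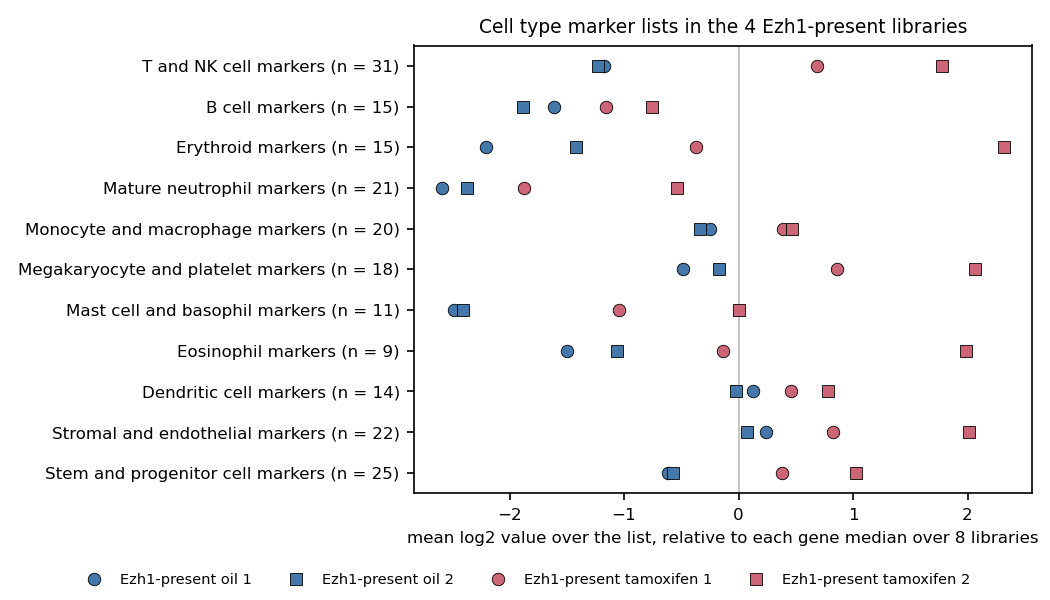
Mean log2 value over each cell type marker list (horizontal axis, relative to each gene's median over 8 libraries) in the 2 Ezh1-present oil libraries (blue) and the 2 Ezh1-present tamoxifen libraries (red), with replicate 1 as circles and replicate 2 as squares. Both tamoxifen libraries lie to the right of both oil libraries in every list, and tamoxifen replicate 2 reaches 2.32 for erythroid markers, where replicate 1 lies at -0.37.

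Among cell cycle and Polycomb genes, the inhibitor locus Cdkn2a and the PRC1 subunit gene Bmi1 rose together. Cdkn2a, which encodes the Ink4a and Arf inhibitors of the Rb and p53 pathways and is a classical Polycomb target, lay at -0.97 and -1.26 in oil and at 1.40 and 0.97 in tamoxifen. The tamoxifen libraries were higher without overlap, and the change was 2.31 ± 0.20, or 4.94-fold (adjusted p = 0.0276). Bmi1, a PRC1 subunit known as a repressor of Cdkn2a, lay at -0.60 and -0.75 in oil and at 0.51 and 0.41 in tamoxifen. It was higher in both tamoxifen libraries by 1.13 ± 0.11, or 2.19-fold (adjusted p = 0.0284). Cdkn2a was the 1 called member of 7 CDK inhibitors and Bmi1 the 1 called member of 22 PRC1 subunits, while 0.637% of all genes rose. The median changes of these lists were 0.54 and 0.03 (the latter -0.03 without oil replicate 2).

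Of the 7 CDK inhibitors 5 had a change above 0, and at an unadjusted p under 0.05 4 were higher, Cdkn2a and Cdkn2b among them, and 2 lower. Cdkn2c had a change of 1.16 ± 0.20 (adjusted p = 0.0779), Cdkn1c of -0.82 ± 0.19 and Cdkn1b of -0.62 ± 0.14. The PRC2 accessory subunits had a median change of -0.11 and the H3K27 demethylases with the Asxl-Bap1 complex a median of -0.25, with 0 called in either list and, at an unadjusted p under 0.05, 1 higher and 2 lower in the first and 3 lower in the second. None of 11 D-type cyclins, kinases and Rb family members was called (2 were higher at an unadjusted p under 0.05), and Ccnd2, a cyclin that drives entry into the cell cycle, had a change of 1.73 ± 0.44. None of 23 p53 targets was called, with a median of 0.155 and 17 above 0. At an unadjusted p under 0.05 8 of them were higher, against 20.6% of all genes in either direction. Zmat3, a p53 target, had a change of 1.10 ± 0.28 (adjusted p = 0.128).

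The promoter of Cdkn2a is dense in CG dinucleotides, which mark the CpG islands where Polycomb complexes gather. It is shown with that of Clcn1, a muscle chloride channel gene that fell, as a CG-poor contrast. Each line gives the 250 bases before the start site nearest to the 5′ end of the gene in the deposited table, on the gene's strand, from RefSeq on GRCm38.p6, with each CG in capitals. The Cdkn2a stretch, at chr4:89294620-89294869 (minus strand), holds 40 CG, and that of Clcn1, at chr6:42286435-42286684 (plus strand), holds 3. The Cdkn2a start shown is the one at the outer end of the gene, and inner starts are not shown.
Cdkn2a: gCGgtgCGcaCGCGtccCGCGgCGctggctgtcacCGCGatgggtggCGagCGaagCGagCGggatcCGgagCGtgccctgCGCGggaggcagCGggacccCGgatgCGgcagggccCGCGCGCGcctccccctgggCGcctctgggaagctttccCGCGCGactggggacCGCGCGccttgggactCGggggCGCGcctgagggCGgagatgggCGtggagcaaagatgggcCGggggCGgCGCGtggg
Clcn1: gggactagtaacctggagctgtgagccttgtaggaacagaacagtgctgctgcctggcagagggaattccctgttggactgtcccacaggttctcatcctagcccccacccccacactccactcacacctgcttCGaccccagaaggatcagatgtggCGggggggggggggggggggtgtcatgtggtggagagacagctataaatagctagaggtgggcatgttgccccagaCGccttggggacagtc

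Position showed which neighbours moved with these genes. Cdkn2b, the inhibitor gene next to Cdkn2a, lay at -0.69 and -0.83 in oil and at 1.53 and 0.64 in tamoxifen, and its change of 1.84 ± 0.59 was not called (adjusted p = 0.179). Mtap, the next gene on the other side, had a change of 0.30 ± 0.17. Commd3, which lies directly before Bmi1, lay at -0.34 and -0.50 in oil and at 0.13 and 0.11 in tamoxifen, a change of 0.54 ± 0.10 (adjusted p = 0.0798). Its groups did not overlap, but the call was missed. Among the tested genes, 7 pairs of direct neighbours were both called, each pair in the same direction, and they held 13 of the 163 called genes (7.98%). The chain of Ptgr1, Dnajc25 and Gng10 on chromosome 4 had changes of 1.38, 1.29 and 0.92. Rdx and Zc3h12c on chromosome 9 had changes of 0.98 and 1.83, and Lsm14b and Psma7 on chromosome 2 of 0.80 and 0.71. The olfactory receptor genes Olfr1043 and Olfr1061 fell by 0.93 and 1.70. Direct neighbours here are consecutive tested genes at any distance: Olfr1043 ends at 86162947 and Olfr1061 starts at 86413109 on chromosome 2. The number of pairs was not tested.

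**Figure D2:**
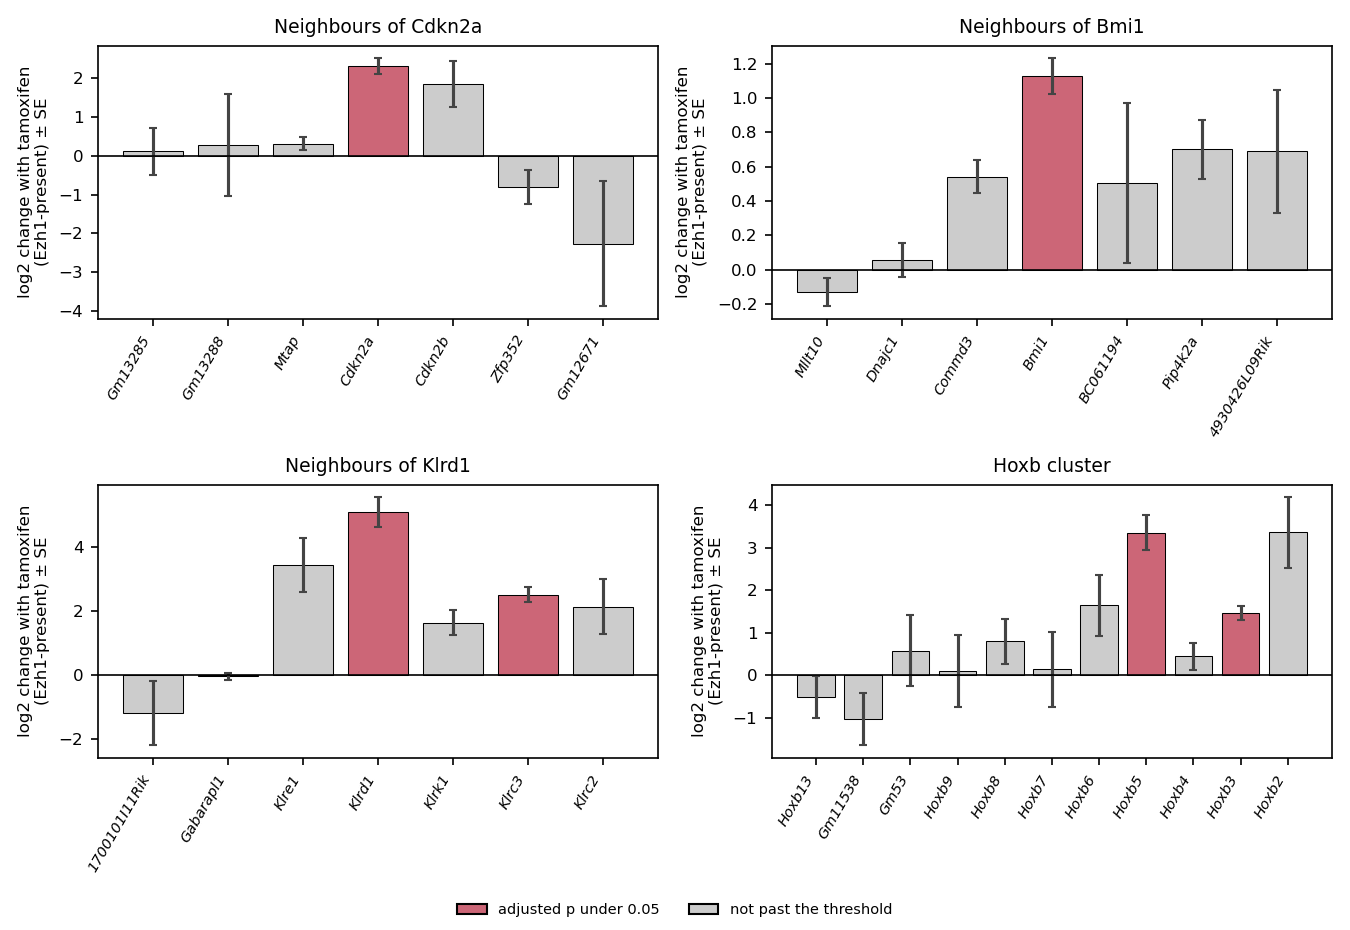
Log2 change with tamoxifen in Ezh1-present cells (vertical axis, bars from 0, error bars ± SE, n = 2 per group) for the tested genes next to Cdkn2a, Bmi1 and Klrd1 and in the Hoxb cluster, in chromosomal order. Called genes are red, and in the Hoxb cluster these are Hoxb5 at 3.35 and Hoxb3 at 1.46.

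Developmental genes that Polycomb is known to silence were among the larger rises. Lin28b, which binds RNA, blocks let-7 microRNA maturation and marks fetal blood formation, lay at -3.06 and -2.25 in oil and at 2.67 and 1.86 in tamoxifen. The lower oil library was at the floor, both tamoxifen libraries were higher, and the change was 4.92 ± 0.59 (adjusted p = 0.0434). Eya1, a transcriptional coactivator of organ development, lay at -3.08 and -2.27 in oil and at 0.96 and 1.80 in tamoxifen. Both tamoxifen libraries were higher, by 4.05 ± 0.37 (adjusted p = 0.0276). The oil libraries of Eya1 had the same SD (0.57011) as those of Lin28b. The lower oil library of Eya1 may thus be at the floor as well, in which case the size of the change depends on it.

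In the Hoxb cluster, homeobox genes that pattern the body axis and are active in blood stem cells, Hoxb3 and Hoxb5 rose among 9 tested genes (0.637% of all genes rose). Hoxb3 lay at -1.40 and -1.26 in oil and at 0.14 and 0.12 in tamoxifen, a change of 1.46 ± 0.17 (adjusted p = 0.0421). Hoxb5 lay at -0.13 and -0.96 in oil, the lower of them at the floor, and at 2.75 and 2.86 in tamoxifen, a change of 3.35 ± 0.42 (adjusted p = 0.0459). Both genes were higher in both tamoxifen libraries. Hoxb2 was at the floor in both oil libraries and at 2.16 and 4.56 in tamoxifen, which was not called (adjusted p = 0.124), and Hoxb4, between Hoxb5 and Hoxb3, had a change of 0.44 ± 0.32. The cluster's median change was 0.80, with 8 of 9 above 0, and 0.441 over rows with all 8 libraries above the floor.

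The Hoxa cluster with its cofactor genes, which drives many leukaemias, did not share this direction. Of 17 genes 4 had a change above 0, the median was -0.36 and none was called. At an unadjusted p under 0.05, 2 were higher and 3 lower. Meis1 had a change of -0.54 ± 0.11 (adjusted p = 0.0904). Of 74 non-Hox developmental transcription factors and cofactors Eya1 alone was called, with a median of 0.11, and of 9 tested Hoxc and Hoxd genes none was (2 higher at an unadjusted p under 0.05), with Hoxc9 closest at 2.59 ± 0.34 (adjusted p = 0.0519). The list medians moved when 1 library was left out, to 0 for the Hoxc and Hoxd genes and for the non-Hox factors without tamoxifen replicate 2.

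Rises outside the lists, picked after their values were seen, were of varied function. Penk, the precursor of enkephalin, rose by 1.69 ± 0.15, Cadm3, a neuronal adhesion molecule, by 3.16 ± 0.25, and Nrg1, a ligand of ErbB receptors, by 1.41 ± 0.11. Epha8, an ephrin receptor, was at the floor in both oil libraries and at 1.29 and 1.31 in tamoxifen, at least 2.28-fold higher against 3 reads per library. Such limits, here and below, keep the higher group at its observed mean, so counting error in that group is not covered. Ocln, which encodes the tight junction protein occludin, lay at -0.13 and -0.15 in oil and at 1.94 and 2.05 in tamoxifen, close together within each group. Its change was 2.14 ± 0.09 (adjusted p = 0.00465), and 2.08 to 2.19 with any 1 library left out. Some of the 8 libraries were at the floor for Ocln, where p can be too small.

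Further large rises stood apart from these groups. Myct1, a Myc target gene of blood and endothelial cells that is listed among stem and progenitor markers, lay at -1.25 and -0.45 in oil and at 3.57 and 5.06 in tamoxifen, a change of 5.16 ± 0.61, the largest rise among the genes named. Its tamoxifen libraries were far above both oil libraries and above all 4 Ezh1-null libraries, which spanned -0.13 to 0.84. The oil libraries of Myct1 had the same SD (0.57011) as those of Lin28b, whose lower one was at the floor. The lower oil library of Myct1 may thus be at the floor too, in which case the size of the change depends on it. Tmem178, a membrane protein of the endoplasmic reticulum, lay at -5.19 and -4.74 in oil and at -0.39 and -0.55 in tamoxifen. Both tamoxifen libraries were higher by 4.50 ± 0.20, or 22.6-fold (adjusted p = 0.00465). Arxes1, an adipocyte gene on the X chromosome with a near-identical neighbour, so that its count is uncertain, rose by 3.55 ± 0.14.

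Of the remaining large rises, Morc4, of the Morc family of chromatin ATPases, rose by 4.17 ± 0.44, Rnase10, of the ribonuclease A family, by 4.10 ± 0.35, and Ppic, a cyclophilin, by 3.99 ± 0.36. Prrg4, a membrane protein with a Gla domain, rose by 4.08 ± 0.50. Oosp1, named as an oocyte secreted protein, was at the floor in both oil libraries and at least 4.55-fold higher in tamoxifen against 3 reads per library. Ezh1-present oil libraries were the lowest 2 of 8 for Rnase10, Prrg4 and Tmem178, and Ezh1-null oil libraries the lowest 2 for Morc4 and Ppic. The oil libraries of Rnase10 had the same SD (0.58877) as those of Hoxb5, whose lower one was at the floor. The lower oil library of Rnase10 may thus be at the floor too.

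**Figure D3:**
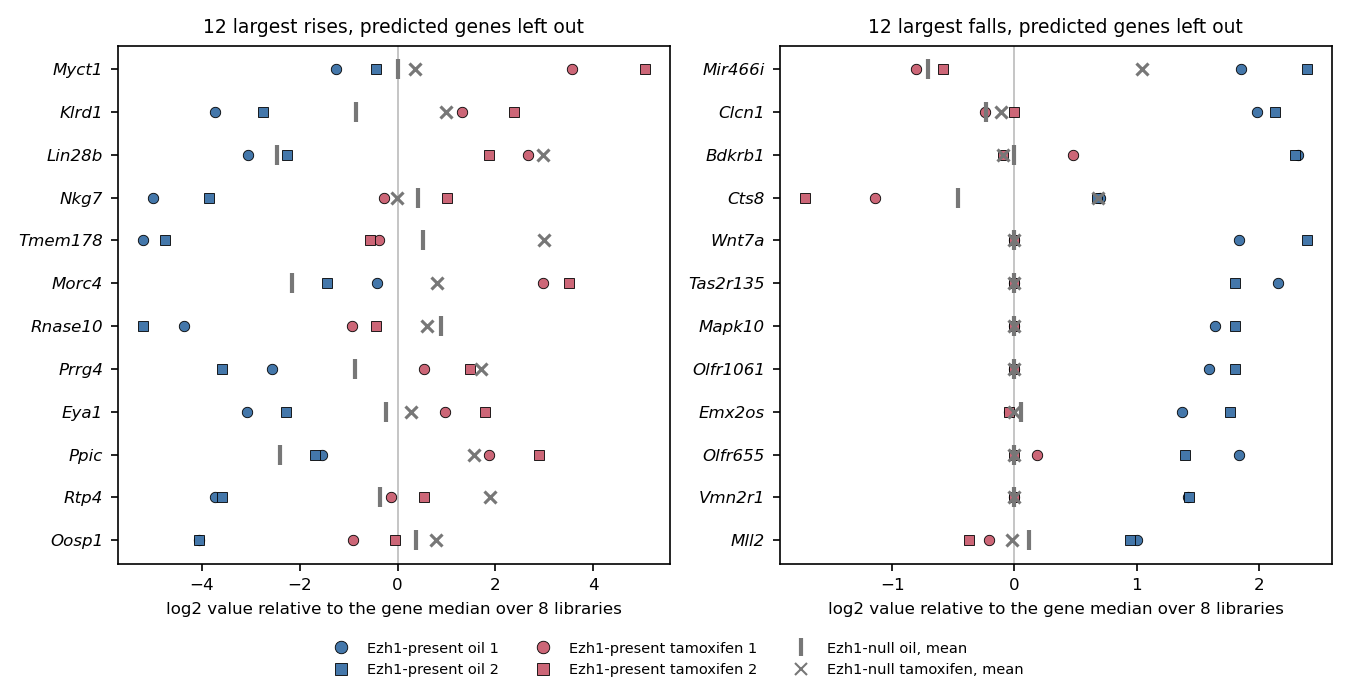
Log2 values (horizontal axes, relative to each gene's median over 8 libraries) of the 12 largest rises and 12 largest falls, predicted genes left out, in the 4 Ezh1-present libraries (oil blue, tamoxifen red, replicate 1 circles, replicate 2 squares), with the Ezh1-null oil and tamoxifen means (n = 2 each) as grey bars and crosses. Oil and tamoxifen points do not overlap in any of the 24 genes, and in Wnt7a, Tas2r135, Mapk10, Olfr1061 and Vmn2r1 both tamoxifen libraries lie at 0, the floor of those rows.

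Lymphoid genes rose, beside the T and NK cell marker values given above. Klrd1, a lectin-like receptor of NK cells, lay at -3.73 and -2.75 in oil and at 1.31 and 2.39 in tamoxifen. Both tamoxifen libraries were higher, by 5.09 ± 0.47, or 34-fold (adjusted p = 0.0276). Nkg7, a granule protein of cytotoxic cells, lay at -5.0 and -3.84 in oil and at -0.28 and 1.01 in tamoxifen, a change of 4.79 ± 0.57 (adjusted p = 0.043). Its oil libraries were the lowest 2 of 8. These were the 2 called members of 31 T and NK cell markers (0.637% of all genes rose).

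Neighbours of Klrd1 in the NK receptor cluster of chromosome 6 lay in the same direction. Klrc3 was at the floor in both oil libraries and at 2.16 and 2.85 in tamoxifen, at least 2.15-fold higher against 3 reads per library (adjusted p = 0.0276). Klre1 had a change of 3.44 ± 0.85, Klrk1 of 1.63 ± 0.39 and Klrc2 of 2.13 ± 0.85, none of them called, and reads of the similar Klrc genes may be split between them. Gabarapl1, an autophagy gene that borders the cluster, had a change of -0.04 ± 0.11. Among T cell genes, Cd3e was at the floor in both oil libraries and at 1.77 and 3.18 in tamoxifen, which narrowly missed the threshold (adjusted p = 0.0509).

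Dntt, the terminal transferase of early lymphocytes, lay at -5.34 and -4.54 in oil and at -1.60 and -1.52 in tamoxifen, a change of 3.38 ± 0.34 (adjusted p = 0.0327). Even the tamoxifen libraries stayed below the 4 Ezh1-null libraries, which spanned 1.52 to 3.77. Cd7, a surface protein of T and NK cells, rose by 3.38 ± 0.30, from -1.02 and -0.51 to 2.24 and 3.0. Tslp, a cytokine that acts on lymphoid progenitors and dendritic cells, was at the floor in both oil libraries and at least 2.28-fold higher against 3 reads per library.

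Interferon-stimulated genes rose in small number and leaned upwards as lists. Rsad2, the antiviral enzyme viperin, lay at -1.23 and -1.43 in oil and at 0.91 and 1.43 in tamoxifen, a change of 2.50 ± 0.20, or 5.67-fold (adjusted p = 0.0242). Rtp4, an interferon-induced regulator of receptor transport, lay at -3.74 and -3.59 in oil and at -0.13 and 0.54 in tamoxifen, a change of 3.87 ± 0.40 (adjusted p = 0.0357). Ifi27l2a, an interferon-induced mitochondrial protein, lay at -1.11 and -1.07 in oil and at 0.54 and 1.09 in tamoxifen, a change of 1.90 ± 0.19. Each was higher in both tamoxifen libraries. Oas3, a synthetase that activates RNase L, rose by 1.39 ± 0.17, from -1.51 and -1.23 to -0.17 and 0.21.

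These 4 were the called members of 65 tested effectors, Oas genes and GTPases (0.637% of all genes rose). Oas1d, an Oas family gene outside the lists, was called lower, with a change of -0.86 (adjusted p = 0.0276). Both Ezh1-present tamoxifen libraries were at the floor for Oas1d. Of 37 effectors 33 had a change above 0 (median 0.65), of 9 Oas genes 7 (median 0.72) and of 19 GTPases 18 (median 0.69), against 51.9% of all genes. The 27 sensors and factors that induce interferon had a median of -0.01 with 12 above 0 and none called, and at an unadjusted p under 0.05 9 were higher and 3 lower. Isg15, a ubiquitin-like modifier, lay at -2.08 and -1.50 in oil and at 0.13 and 0.62 in tamoxifen and missed the threshold (adjusted p = 0.0649). Outside the lists, Ddx60, a helicase that aids RNA sensing, rose by 2.15 ± 0.23, and Mnda and AI607873, of the interferon-inducible family that binds nucleic acids, rose by 3.36 ± 0.41 and 1.95 ± 0.15. For antigen presentation, 17 of 22 class I genes had a change above 0 (median 0.13) and 8 of 12 class II genes (median 1.15), with 0 called in either list and 4 and 6 higher, 1 and 1 lower at an unadjusted p under 0.05. The class II median was 0.68 without tamoxifen replicate 2.

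The promoters of the rises were searched for the core of the interferon-stimulated response element (GAAA, then any 2 bases, then GAAA) on both strands in the 300 bases from 250 before to 50 after the start. It was found in 6 of 86 rises with a promoter entry (6.98%), in 1 of 32 falls (3.12%) and in 432 of 13719 tested genes (3.15%). In the effector, Oas and GTPase lists it was found in 27 of 45 (60%). The 6 rises were Rsad2, Oas3, Ddx60, Mnda, AI607873 and Tll1, a metalloprotease gene. Tll1 is the next tested gene after Ddx60 but lies far from it: Ddx60 ends at 62037695 and Tll1 starts at 64014770 on chromosome 8. A match is a description and not a binding site. The 250 bases before the start are shown for 4 of these genes, with matches in capitals (in Rsad2 the match is on the opposite strand). They lie at chr12:26456453-26456702 (minus strand, Rsad2), chr5:120777660-120777909 (minus strand, Oas3), chr8:61927837-61928086 (plus strand, Ddx60) and chr1:173741810-173742059 (minus strand, AI607873).
Rsad2: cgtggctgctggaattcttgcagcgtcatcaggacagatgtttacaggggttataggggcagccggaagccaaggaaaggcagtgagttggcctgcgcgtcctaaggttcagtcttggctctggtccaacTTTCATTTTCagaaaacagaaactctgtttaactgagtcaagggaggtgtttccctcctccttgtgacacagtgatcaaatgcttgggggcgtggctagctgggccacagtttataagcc
Oas3: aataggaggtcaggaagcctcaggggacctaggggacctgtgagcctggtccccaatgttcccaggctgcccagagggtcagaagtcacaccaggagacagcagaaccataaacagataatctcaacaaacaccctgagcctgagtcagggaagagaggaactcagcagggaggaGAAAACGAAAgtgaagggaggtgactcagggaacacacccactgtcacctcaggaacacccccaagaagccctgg
Ddx60: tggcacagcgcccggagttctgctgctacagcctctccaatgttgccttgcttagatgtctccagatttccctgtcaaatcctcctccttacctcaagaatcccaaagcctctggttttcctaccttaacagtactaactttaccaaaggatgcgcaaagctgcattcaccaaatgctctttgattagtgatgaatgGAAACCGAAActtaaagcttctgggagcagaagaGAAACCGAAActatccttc
AI607873: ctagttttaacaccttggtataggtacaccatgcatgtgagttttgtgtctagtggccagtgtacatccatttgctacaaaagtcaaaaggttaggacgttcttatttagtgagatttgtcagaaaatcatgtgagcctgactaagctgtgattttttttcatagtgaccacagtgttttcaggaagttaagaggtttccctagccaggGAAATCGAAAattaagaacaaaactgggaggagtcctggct

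The match began at position -120 from the start in Rsad2, -75 in Oas3 and -41 in AI607873, while Ddx60 held 2 matches in the stretch shown. Rtp4 and Ifi27l2a are named only, and the search for a TATA box (TATAAA) found it in 8.14% of the rises, 12.5% of the falls and 8.54% of all tested genes.

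Of 10 genes in the list of primary granule proteins, which are made in promyelocytes, 2 were called, Prss57 and Nkg7 (0.637% of all genes rose). Nkg7 is also in the T and NK cell list and is described above as a granule protein of cytotoxic cells. In the list 9 had a change above 0, with a median of 1.45 (0.743 under quantile normalization), beside the neutrophil marker values given above. Prss57, a granule serine protease, lay at -3.44 and -3.08 in oil and at -1.17 and -0.43 in tamoxifen, a change of 2.46 ± 0.29 (adjusted p = 0.0421). Elane, neutrophil elastase, lay at -4.39 and -3.38 in oil and at -1.54 and -1.03 in tamoxifen, and Ms4a3, a membrane protein of myeloid precursors, at -6.71 and -4.49 in oil and at -1.26 and -0.44 in tamoxifen. Neither was called (adjusted p = 0.0687 and 0.0678), though the groups did not overlap. S100a8, an abundant protein of mature neutrophils, had a change of 2.63 ± 0.72. In the Ezh1-null cells the primary granule list had a median change of -0.22.

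A set of 12 called genes known from tissue macrophages was grouped after the values were seen, so its shared direction is a description. Vsig4, a complement receptor, lay at 0.20 and 0.82 in oil and at 3.59 and 2.94 in tamoxifen, a change of 2.76 ± 0.29 (adjusted p = 0.0357). Timd4, which binds phosphatidylserine on dying cells, lay at 0.21 and -0.12 in oil and at 2.20 and 2.75 in tamoxifen, a change of 2.43 ± 0.28. Cd5l, a protein that macrophages secrete, rose by 1.79 ± 0.17. In 11 of the 12 the Ezh1-present tamoxifen libraries were the highest 2 of 8 (51.3% of all rises and 8.82% of all genes tested). The 12 were picked from the called rises with these values known, so their share is no test.

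The other 9 rose by 1.08 to 1.72. They were the lectins and scavenger receptors Siglec1, Mrc1 and Clec4a1, the pore-forming protein Mpeg1, the lysosomal proteases Lgmn and Ctsb, the nuclear receptor Pparg, the phospholipase Pla2g7 and the cytokine Il1a. Mrc1 lay at 0.30 and 0.32 in oil and at 1.58 and 1.82 in tamoxifen. Mrc1 was the 1 called member of the 20 monocyte and macrophage markers listed, whose median was 0.59. In that list 15 had a change above 0, the lowest change was -0.445, and at an unadjusted p under 0.05 limma had 10 higher and 1 lower. Without tamoxifen replicate 2 the 12 changes were 1.03 to 3.08, and 0 of the 12 were called. In Ezh1-null cells 2 of the 12 were called, Clec4a1 and Il1a, both higher. Selp, the adhesion molecule of platelets and endothelium, rose by 1.69 ± 0.18, beside the megakaryocyte marker values given above.

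The 48 falls were smaller, and many rested on few reads. In 21 of them every tamoxifen library was at the floor, and in 11 of these 21 the fall was within what 3 reads per library allow. Groups of such genes had identical values: Glipr1l2 and Prss55 lay at 0.83 and 0.81 in oil and at the floor in every other library. The largest fall among such named genes was that of Wnt7a, a Wnt ligand, at 1.83 and 2.39 in oil and at the floor in tamoxifen, at least 1.66-fold lower against 3 reads per library. Wnt7a was the 1 called member of 33 Wnt ligands, receptors and antagonists, whose median change was 0.40 with 25 above 0. That median was 0.167 without oil replicate 2, 0.214 without tamoxifen replicate 2 and 0.611 without tamoxifen replicate 1. Tas2r135, Olfr1061, Vmn2r1 and Mapk10, the first 3 of them chemosensory receptor genes, fell to the floor in the same way, by at least 1.03-fold to 1.52-fold.

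Of the falls 22 had no recognised floor. Mll2, a histone methyltransferase that marks enhancers (also named Kmt2d), lay at 1.00 and 0.95 in oil and at -0.21 and -0.38 in tamoxifen. Both tamoxifen libraries were lower, by 1.27 ± 0.13 on the log2 scale (adjusted p = 0.0326). Clcn1, the muscle chloride channel, fell by 2.18 ± 0.23, from 1.98 and 2.13 to -0.24 and -0.01. Ryr1, the calcium release channel of muscle, fell by 1.17 ± 0.11, from 1.23 and 1.32 to 0.16 and 0.05. Cts8, a cathepsin, fell by 2.12 ± 0.26. With some libraries at the floor, Bdkrb1, a bradykinin receptor, fell by 2.12 ± 0.20, from 2.32 and 2.29 to 0.48 and -0.10. Mir466i, a row named for a microRNA gene, fell by 2.82 ± 0.35, and mature microRNAs were not measured by these libraries.

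Smaller falls held regulators. Fat1, an atypical cadherin, lay at 1.01 and 0.93 in oil and at 0.09 and -0.04 in tamoxifen and fell by 0.94 ± 0.11. Wnk2, a kinase, fell by 0.79 ± 0.08, and Ppp1r3b, a glycogen-targeting subunit of protein phosphatase, by 0.71 ± 0.08. Ier3, an immediate early gene, fell by 0.77 ± 0.10 (adjusted p = 0.0476) and was the 1 called member of 19 immediate early genes, whose median was 0.24 (-0.03 under quantile normalization). The partners of Moz fusions, among them the acetyltransferase Ep300, had 1 of 9 changes above 0, a median of -0.30 and 0 called, with 5 lower at an unadjusted p under 0.05.

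Housekeeping programmes differed little. None of 28 ribosomal protein genes was called, or had an unadjusted p under 0.05, with changes of -0.12 to 0.12. Of 25 DNA replication genes 16 had a change above 0 (median 0.05), and of 25 mitotic genes 22 did (median 0.25), with 0 called in either list and 2 and 8 higher at an unadjusted p under 0.05. The mitotic median was 0.121 without oil replicate 1 and 0.375 without oil replicate 2. Cholesterol synthesis, a pathway that feeds membrane growth, had 18 of 19 changes above 0 (median 0.23) and 0 called, with 8 higher at an unadjusted p under 0.05. Oestrogen receptor targets, listed because the tamoxifen arm received a ligand of that receptor, had 6 of 11 changes above 0, a median of 0.05 (0.507 without oil replicate 2) and 0 called, with 3 higher at an unadjusted p under 0.05.

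Among regulators of blood cell identity, the stem and progenitor markers had 16 of 25 changes above 0 and a median of 1.15. Myct1 and Hoxb5 were called (0.637% of all genes rose). List means were -0.62 and -0.57 in oil, 0.38 in tamoxifen replicate 1 and 1.03 in replicate 2, and the median change was 0.755 without tamoxifen replicate 2 and 1.76 without replicate 1. The growth factor receptors had 11 of 25 above 0 (median -0.07), the myeloid transcription factors 16 of 27 (median 0.17), the Myc network 7 of 9 (median 0.21, or 0.0243 without oil replicate 1) and the germ line genes 9 of 19 (median -0.01). None of these was called, and at an unadjusted p under 0.05 the numbers higher were 7, 11, 2 and 1 and the numbers lower 0, 4, 1 and 4. In the fetal Lin28b axis, Lin28b was the 1 called of 12, with 5 above 0 and a median of -0.03.

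Comparison with the Ezh1-null cells, which share no library with the comparison above, set the 163 genes beside an independent tamoxifen change. In Ezh1-null cells tamoxifen changed 614 genes (3.4%), of which 560 rose (3.1%). Of the 115 rises in Ezh1-present cells 86 (74.8%) had the same sign in Ezh1-null cells, and 40 were called higher there, against 3.1% of all genes. Of the 48 falls 17 (35.4%) had the same sign, 15 had a change of exactly 0 there and so no sign, 2 were called lower and 5 were called higher. Over all genes 56.9% had the same sign. The fits share 1 estimate of the spread per gene, so a gene called in one comparison is more readily called in the other.

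The genes called higher in both genotypes included some of the rises described above. Cdkn2a changed by 4.51 in Ezh1-null cells and Lin28b by 5.43, and Bmi1 by 1.25. Rsad2, Ifi27l2a and Oas3 changed there by 3.33, 2.91 and 1.98, Cadm3 by 4.61, Penk by 1.88 and Ocln by 1.12. All of these were called in both. Eya1, Hoxb3 and Hoxb5 had changes of 0.51, 0.69 and 1.6 in Ezh1-null cells and were not called there (adjusted p = 0.548, 0.115 and 0.13). For 48 of the 115 rises (41.7%) both oil groups lay below both tamoxifen groups, against 4.6% of all genes.

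Other rises started from the lowest level of the series. In 62 of the 115 rises (53.9%) the 2 Ezh1-present oil libraries were the lowest of the 8, against 12.4% of all genes. In 59 (51.3%) the Ezh1-present tamoxifen libraries were the highest 2 of 8, against 8.82%. In 42 of the 48 falls (87.5%) the Ezh1-present oil libraries were the highest 2 of 8, against 13% of all genes. Since the genes were called on the difference between these groups, such shares describe the called genes and are no test.

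The difference between the tamoxifen changes was itself called in 86 genes (0.476%), 33 of them among the 163. That count was 6 over rows with no recognised floor and 10 without rows in which a compared group lay wholly at the floor. It was 37 under quantile normalization and 0 with the replicate number as a block, and it moved when 1 library was left out. In 16 of the rises the change was called as different, and Dntt had the largest difference, 5.21 ± 0.48, with a change of -1.83 in Ezh1-null cells. Rnase10 differed by 4.39, with a change of -0.29 in Ezh1-null cells, and Gpr44, a prostaglandin receptor, by 3.76. For Gpr44 both Ezh1-present oil libraries were at the floor. Klrd1, Myct1 and Nkg7 did not pass this test (adjusted p = 0.143, 0.113 and 0.0884). The difference was called in 17 of the falls, and Fat1, which fell by 0.94 in Ezh1-present cells, had a change of 1.34 in Ezh1-null cells, as did Wnk2 with 1.27. Col13a1, Chn1, Car11 and C2cd4c, which were not called in Ezh1-present cells, had changes of -0.93, 1.35, -0.82 and 0.13 in those cells and of 3.97, 5.78, 3.21 and 4.11 in Ezh1-null cells. In these 4 genes both Ezh1-null oil libraries were at the floor, so the size of the difference depends on it.

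**Figure D4:**
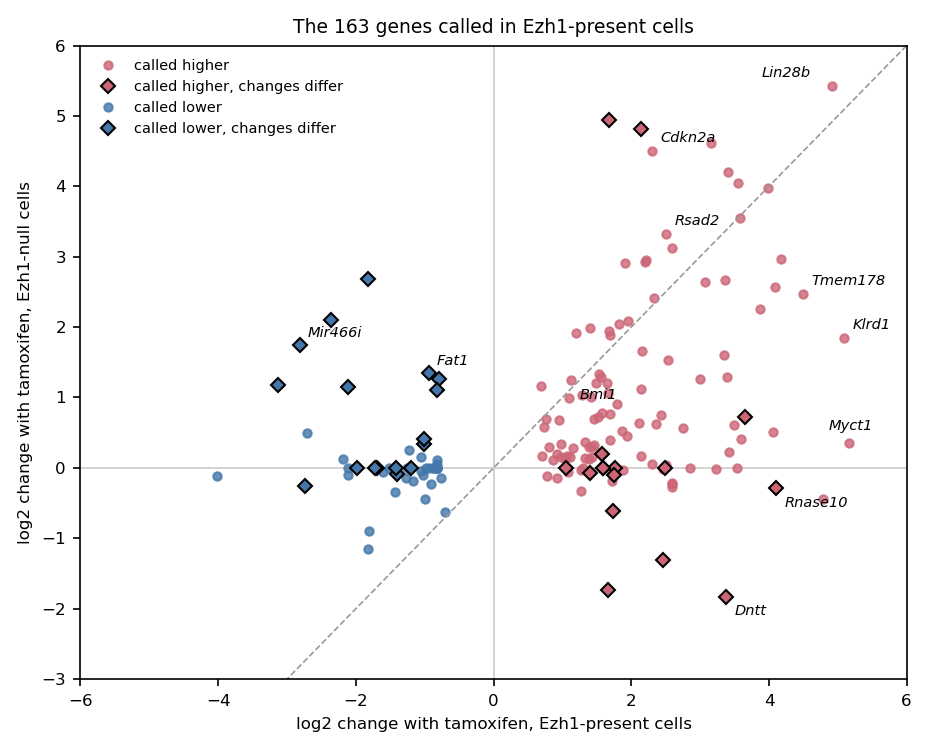
Log2 change with tamoxifen in Ezh1-present cells (horizontal axis) and in Ezh1-null cells (vertical axis) for the 163 called genes, with rises red and falls blue. The dashed line marks equal changes, black-edged diamonds mark the 33 genes whose changes differ at an adjusted p under 0.05, and Cdkn2a lies above the line while Dntt lies below 0 on the vertical axis.

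The CG content of promoters, which the fit did not use, is given as a description with no test. A promoter entry matched 86 of the 115 rises, 32 of the 48 falls and 13719 of the 18051 genes tested. The median number of CG dinucleotides in the 300-base window was 12 in the rises, 3.5 in the falls and 18 in all genes tested. At least 10 CG were found in 57% of the rises, 21.9% of the falls and 71.6% of all. Among genes with no recognised floor the medians were 14 in 68 rises, 4.5 in 16 falls and 20 in 11921 genes. The rises spanned both ends, with 45 CG in the window of Cdkn2a, 56 in Epha8 and 37 in Tmem178, and 2 in Dntt, 3 in Nkg7 and 3 in Vsig4. Among the falls Mll2 had 27 and Wnt7a 42, while Clcn1 had 3 and Cts8 1.

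**Figure D5:**
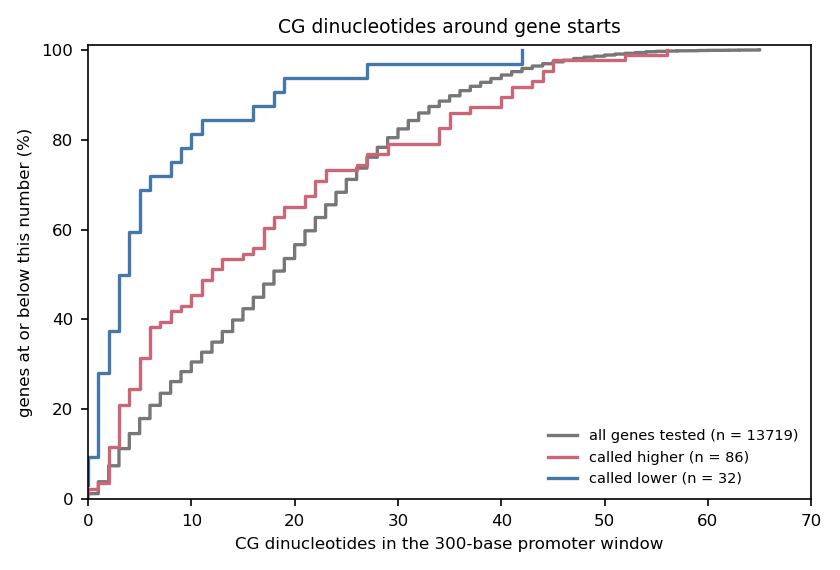
Share of genes (vertical axis, percent) with at most a given number of CG dinucleotides in the 300-base promoter window (horizontal axis), for 86 rises (red), 32 falls (blue) and 13719 tested genes (grey). The blue curve lies furthest left, with a median of 3.5 against 18 for all genes.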

How the data were processed

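RNA from c-kit+ leukaemia cells was sequenced after TruSeq library preparation, per the labels' protocols, with mm10 as the build in the submitters' processing notes. The sources used here do not give the aligner or counter. The deposited values are log2 normalized read counts, which the authors floored at 1 and centred on each row's median, so levels and depths cannot be read directly from them. A floor was recognised where at least 2 libraries tied at the row minimum (tolerance 2e-06). Rows described as having no library at the floor can therefore hold a single library there. Of 31574 rows, 18051 in which 2 or more libraries exceeded the floor were fitted with limma 3.58.1 in R 4.3.3, with 1 coefficient for each of the 4 groups of all 8 libraries and empirical Bayes without a trend (4 residual and 1.24 prior degrees of freedom), and p-values were adjusted by Benjamini-Hochberg over all rows fitted. Lower limits of fold changes set a group at the floor to 3 reads per library and keep the other group at its observed mean. They cover counting error in the floor group only. An exact permutation test of 2 libraries against 2 cannot go below p = 0.333.

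Named genes are Ezh1 and Ezh2, the 12 largest rises and falls among called genes with no library of the higher group at the floor, the 10 called genes of smallest adjusted p, up to 10 that stayed called without each library, the called members and up to 3 others of each of 42 gene lists, the 5 largest differences each way between the genotypes, and neighbours of chosen genes. Symbols of predicted genes were counted and not named (28 of the called genes), except AI607873, which is named after its values were seen. The comparison reported and the lists were chosen with earlier results of these data known. Promoter sequences are from RefSeq on GRCm38.p6, read with Python 3.11.15, and figures were drawn with matplotlib 3.10.9. Alternatives were the scaling, the filter, the empirical Bayes step, the replicate number as a block, the libraries fitted and each library left out.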

Additional observations from a re-analysis of the deposited data

Results flagged for a closer look

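The difference between the tamoxifen changes of the 2 Ezh1 genotypes, tested in limma's fit with Benjamini-Hochberg adjustment, was past the threshold in 86 genes, with 2 libraries in each of the 4 groups. Over rows with no recognised floor it was past the threshold in 6, and such rows can hold a single library at the floor. Values are the change in Ezh1-present cells minus the change in Ezh1-null cells, on the log2 scale.

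The change was higher in Ezh1-present cells for Dntt (5.21), Rnase10 (4.39), Il4 (3.76), Gpr44 (3.76), Il17re (3.13), Cd200r2 (1.59) and Mpeg1 (1.39). For Dntt, Rnase10, Il4, Gpr44 and Il17re the change was above 0 in Ezh1-present cells and below 0 in Ezh1-null cells. Il4 and Il17re were not called in Ezh1-present cells alone. For Il4, Gpr44 and Cd200r2 both Ezh1-present oil libraries were at the floor, so the size of each difference depends on it.

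It was lower in Ezh1-present cells for Col13a1 (-4.90), Mir466i (-4.56), Chn1 (-4.44), Car11 (-4.03), C2cd4c (-3.97), Cts8 (-3.26), Tas2r135 (-1.98), Mapk10 (-1.72), Olfr1061 (-1.70) and Vmn2r1 (-1.42). Tas2r135, Mapk10, Olfr1061 and Vmn2r1 were at the floor in all 4 Ezh1-null libraries and in both Ezh1-present tamoxifen libraries, so each difference equals the fall from the Ezh1-present oil libraries.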

How the results depend on the processing

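For the change with Ezh1 present, the change in Ezh1-null cells and the difference between them, 163 (115 higher, 48 lower), 614 and 86 genes were called. Replicate numbers did not pair the libraries (correlation of deviations across 15517 genes -0.0358 with Ezh1 present and -0.0908 in Ezh1-null cells). With the replicate number as a block, which leaves fewer degrees of freedom, 0 genes were called in all 3, higher and lower alike. With the 4 Ezh1-present libraries alone 0 were called, 0 higher and 0 lower. Leaving out 1 library gave 24 to 404 calls with Ezh1 present (14 to 339 higher, 7 to 65 lower), 176 to 469 in Ezh1-null cells and 17 to 98 for the difference. Quantile normalization gave 158 calls with Ezh1 present, 68 of them among the 163, and 37 for the difference. Over rows with no recognised floor 31 were lower and the difference was called in 6. Without rows in which a compared group lay wholly at the floor, chosen after seeing the data, 73 were called (59 higher, 14 lower) and 10 for the difference. The cause was not tested beyond these settings. Equal library medians, no filter and robust empirical Bayes gave 161, 155 and 130 calls. Over the 163 genes and their alternatives, 957 values stayed called, 1564 were no longer past the threshold and 0 reversed, and 0 genes stayed called in every alternative. Genes near the floor rest on a few reads, and depth cannot be read from the files beyond the relative value of 1 read.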
